A study of Mus musculus with 6 samples.

Results

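The genes described here code for the chaperones and the secretory machinery that fold, modify and export procollagen. They are 54 of the 22063 genes of the table, listed by symbol for their known roles. The rule uses no measured value, but the list was drawn up with earlier results of these data known. All 54 were found in the table and all 54 had enough reads to be tested. They were read in 6 RNA-seq libraries of primary mouse cardiac fibroblasts carrying floxed *Tet3* alleles (*Tet3* f/f). In 3 libraries the cells had received an adenovirus coding for green fluorescent protein (Ad-GFP, genotype label Control, called GFP here), and in 3 an adenovirus coding for Cre recombinase (Ad-Cre, genotype label *Tet3* knockout, called CRE). Both groups received TGF-β, the cytokine best known for driving fibroblasts to become matrix-producing myofibroblasts, so no untreated cells enter any value here. Cre delivered by adenovirus acts in whichever cells take up the virus, so a library can hold cells that kept the gene. The sources used here do not say which libraries came from separate animals, so the p-values measure the spread between these libraries. The comparison asks which of these transcripts differ when *Tet3*, which codes for an enzyme that oxidises 5-methylcytosine in DNA, is deleted in TGF-β-treated cells.

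Procollagen chains enter the endoplasmic reticulum (ER) through the Sec61 channel while they are being made. In the ER they are hydroxylated on proline and lysine, glycosylated, joined by disulfide bonds and wound into a triple helix with the help of general chaperones and of chaperones that bind collagen only. Folded procollagen leaves in carriers built by the COPII coat, escaped ER proteins are brought back by KDEL receptors, and the ends of procollagen are cut off outside the cell. When unfolded proteins build up, the membrane sensors IRE1, ATF6 and PERK raise the transcription of many of these genes, which is called the unfolded protein response. Activated fibroblasts secrete large amounts of collagen and are known for an expanded ER.

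Many chaperone genes carry an ER stress response element near the start site, to which ATF6 and the spliced form of XBP1 bind together with NF-Y. The element (ERSE) was searched as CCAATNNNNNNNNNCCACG on both strands of RefSeq promoters (GRCm38.p6), each running from 250 bases before to 50 bases after a start site. RefSeq promoters were found for 46 of the 54 genes. The 8 without one were *Creb3l1*, *P3h4*, *Atf6*, *Hyou1*, *Sec61a1*, *Kdelr2*, *Manf* and *Fkbp10*. The element was present in 8 of the 46 (17.4%), against 37 of all 27025 genes with a promoter (0.137%), and a second form (ERSE-II, ATTGGNCCACG) in *Dnajb11* and *Herpud1* (4.35%, against 0.0444% of all genes). The matches are shown because the same element lies near the starts of genes that fell and of *Hspa5*, which did not. Each is written 5′ to 3′ in the orientation of the motif with 5 bases on either side, and the capitals mark the fixed letters of the motif.

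Canx, chr11:50325795-50325823, minus strand: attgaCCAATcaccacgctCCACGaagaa
Hsp90b1, chr10:86705633-86705661, minus strand: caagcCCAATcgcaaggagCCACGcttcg
Hsp90b1, chr10:86705528-86705556, plus strand: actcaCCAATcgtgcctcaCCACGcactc
Dnajc3, chr14:118937822-118937850, plus strand: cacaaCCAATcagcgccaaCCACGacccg
Pdia6, chr12:17266486-17266514, plus strand: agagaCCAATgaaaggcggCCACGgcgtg
Calr, chr8:84847070-84847098, plus strand: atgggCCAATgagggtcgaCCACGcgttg
Creld2, chr15:88819515-88819543, minus strand: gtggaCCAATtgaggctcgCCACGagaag
Syvn1, chr19:6046527-6046555, plus strand: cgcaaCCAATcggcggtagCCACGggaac
Hspa5, chr2:34772020-34772048, plus strand: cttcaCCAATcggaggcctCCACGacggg
Herpud1 (ERSE-II), chr8:94386372-94386392, plus strand: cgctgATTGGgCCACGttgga
Dnajb11 (ERSE-II), chr16:22857847-22857867, plus strand: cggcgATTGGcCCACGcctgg

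Counted from the RefSeq start site, where 0 is its first base, the ERSE match of *Syvn1* lay at -44 to -26, that of *Hspa5* at -65 to -47 and the upstream match of *Hsp90b1* at -212 to -194. GENCODE places the starts of *Hspa5* and *Hsp90b1* further upstream, so that the match of *Hspa5* lies inside its GENCODE gene. Of the 8 members with an ERSE, 6 fell, none rose, and *Hspa5* and *Syvn1* were not called, in edgeR's quasi-likelihood test over all tested genes (Benjamini-Hochberg adjusted p under 0.05, libraries scaled by TMM, which centres the bulk of genes). That test called 25.7% of all tested genes lower and 25.5% higher, and it called 64.8% of all 54 members lower. With library size alone in place of TMM, *Creld2* lost its call and *Hspa5* was called higher. *Creld2* also lost its call in 3 of the 6 fits that left out a library. Of all 19 tested genes with an ERSE, these members included, 7 were lower and 4 higher. Members made up 6 of the 7 lower genes and none of the 4 higher ones. A match is a stretch of letters and not a measured binding site. The 250 bases before the RefSeq start sites of *Canx*, the chaperone calnexin, and of *Syvn1*, a ubiquitin ligase of ER-associated degradation, are shown in full because both hold an ERSE that reads in the direction of the gene, while *Canx* fell by 0.56 on the log2 scale and *Syvn1* was not called (-0.024). Capitals again mark the ERSE letters.

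Canx, chr11:50325674-50325923, minus strand: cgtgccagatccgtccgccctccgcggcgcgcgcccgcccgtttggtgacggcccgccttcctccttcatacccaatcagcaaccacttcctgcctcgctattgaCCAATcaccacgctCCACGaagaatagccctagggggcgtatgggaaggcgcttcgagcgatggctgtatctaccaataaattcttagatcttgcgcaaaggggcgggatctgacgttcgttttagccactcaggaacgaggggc
Syvn1, chr19:6046326-6046575, plus strand: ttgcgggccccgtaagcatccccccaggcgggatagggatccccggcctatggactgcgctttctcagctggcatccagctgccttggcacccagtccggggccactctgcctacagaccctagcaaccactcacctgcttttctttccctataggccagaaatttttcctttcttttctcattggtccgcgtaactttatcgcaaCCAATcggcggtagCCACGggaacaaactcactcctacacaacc

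The letters CCAAT, read on either strand, occurred 3 times in the stretch of *Canx* and 2 times in that of *Syvn1*. Another motif of the response, the core TGACGTGG, was found in the promoters of *Kdelr3*, *Sec23a* and *Sec24d* (6.52% of the members with a promoter, against 0.714% of all genes). Its variant TGACGTGA was found in *Hspa5* (2.17% against 0.507%). The shorter letters TGACGT, which both contain, were found in 13 members (28.3% against 8.37%). Of these 13, 5 fell and 3 rose, beside 289 lower and 405 higher among all 1322 tested genes with these letters. The 13 split into 2 lower and 7 higher with library size alone, which called 16.2% of all tested genes lower and 43.0% higher. The palindrome TGACGTCA was found in no member and in 2.03% of all genes. The letters TGATGCAA, of the amino acid response element bound by ATF4, were found in *Herpud1* (2.17% against 1.03%), and TATAAA in *Calr*, *Crtap*, *Mia2* and *Sec31a* (8.70% against 15.7%).

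Total gene counts ran from 17002126 to 20343590 per library, at which 3 counts, the most that a count of 0 allows, are between 0.156 and 0.186 CPM. CPM is the normalised read count, scaled to a common library size after TMM normalization. The whole-gene counts of *Tet3* (chr6:83362373-83459084) were 1044, 965 and 1000 in GFP and 642, 649 and 637 in CRE, so *Tet3* fell by 0.72 on the log2 scale (SE 0.082, edgeR adjusted p = 5.36e-05) and the CRE mean kept 60.8% of the GFP mean. The libraries carried the labelled cell type: all 10 fibroblast markers were tested, with a summed level of 29493 to 30599 CPM in GFP and 18284 to 19682 CPM in CRE, and 8 of the 10 fell. Most of that sum was *Col1a1* (13729 and 8248 CPM on average) and *Col1a2* (11568 and 7391 CPM), which are also procollagen cargo. Of 15 endothelial markers 12 fell and *Eng* rose, with sums of 1096 to 1154 CPM in GFP and 1010.0 to 1061 CPM in CRE. *Eng* held most of that sum (644 and 799 CPM on average), and the other 14 markers summed to 464 to 514 CPM in GFP and 233 to 263 CPM in CRE, with a median log2 fold change of -1.17. Smooth muscle and pericyte markers summed to 1095 to 1249 CPM in GFP and 927 to 944 CPM in CRE (6 of 11 lower, 1 higher), macrophage markers to 59.1 to 66.8 CPM and 34.9 to 38.2 CPM (3 of the 6 tested lower), and cardiomyocyte markers to 0.958 to 1.30 CPM and 2.06 to 3.06 CPM, with *Myh6* and *Myl7* at 0 everywhere and *Nppb*, the 1 gene tested, higher. Plasma cells, which are rich in these chaperones, left *Igkc* at 0 in every library, *Jchain* and *Mzb1* under 0.1 CPM on average, and no called marker but *Sdc1*, which fell by 0.40 on the log2 scale. The marker counts stand beside 25.7% of all tested genes called lower and 25.5% called higher. Fewer cells of a type and less RNA per cell cannot be told apart in these bulk libraries, and the part of these other cells in the results was not tested.

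Most of the machinery was lower in CRE, though not in every role. Of the 54 genes, 35 fell, 7 rose and 12 were not called at an adjusted p under 0.05. The same test called 25.7% of all 12862 tested genes lower and 25.5% higher. Since the least abundant member averaged 17.4 CPM, the background among the 7332 genes at or above that level is also given: 30.5% were lower and 28.9% higher. For 38 members each CRE value was under each GFP value, and for 6 it was over, against 29.6% and 30.0% of all tested genes. The median log2 fold change of the members was -0.22, beside 0.0052 for all tested genes. These counts depend on how libraries are scaled. The 10 genes with the most counts took 9.77% to 10.1% of the GFP libraries and 7.70% to 7.95% of the CRE libraries, and the TMM factors were 0.944 to 0.947 in GFP and 1.05 to 1.06 in CRE. With library size alone, 16.2% of all genes were lower and 43.0% higher, the median of all genes was 0.17 and that of the members -0.060, and 25 members were lower and 13 higher. Relative to the median of all genes the members stood at -0.23 under both scalings. All 7 that rose and 25 of the 35 that fell kept their call with library size alone. The other 10 that fell lost it (*Creld2*, *Fkbp7*, *Fkbp9*, *Fkbp10*, *Crtap*, *Sec61a1*, *Sec13*, *Sec24d*, *Kdelr3* and *Edem1*), and *Hspa5*, *Dnajb11*, *Sec23a*, *Mia2*, *Mia3* and *Sel1l* became higher. GFP replicate 1 differed most from the libraries of its group, and without it 34 members were lower and 7 higher.

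**Figure D1:**
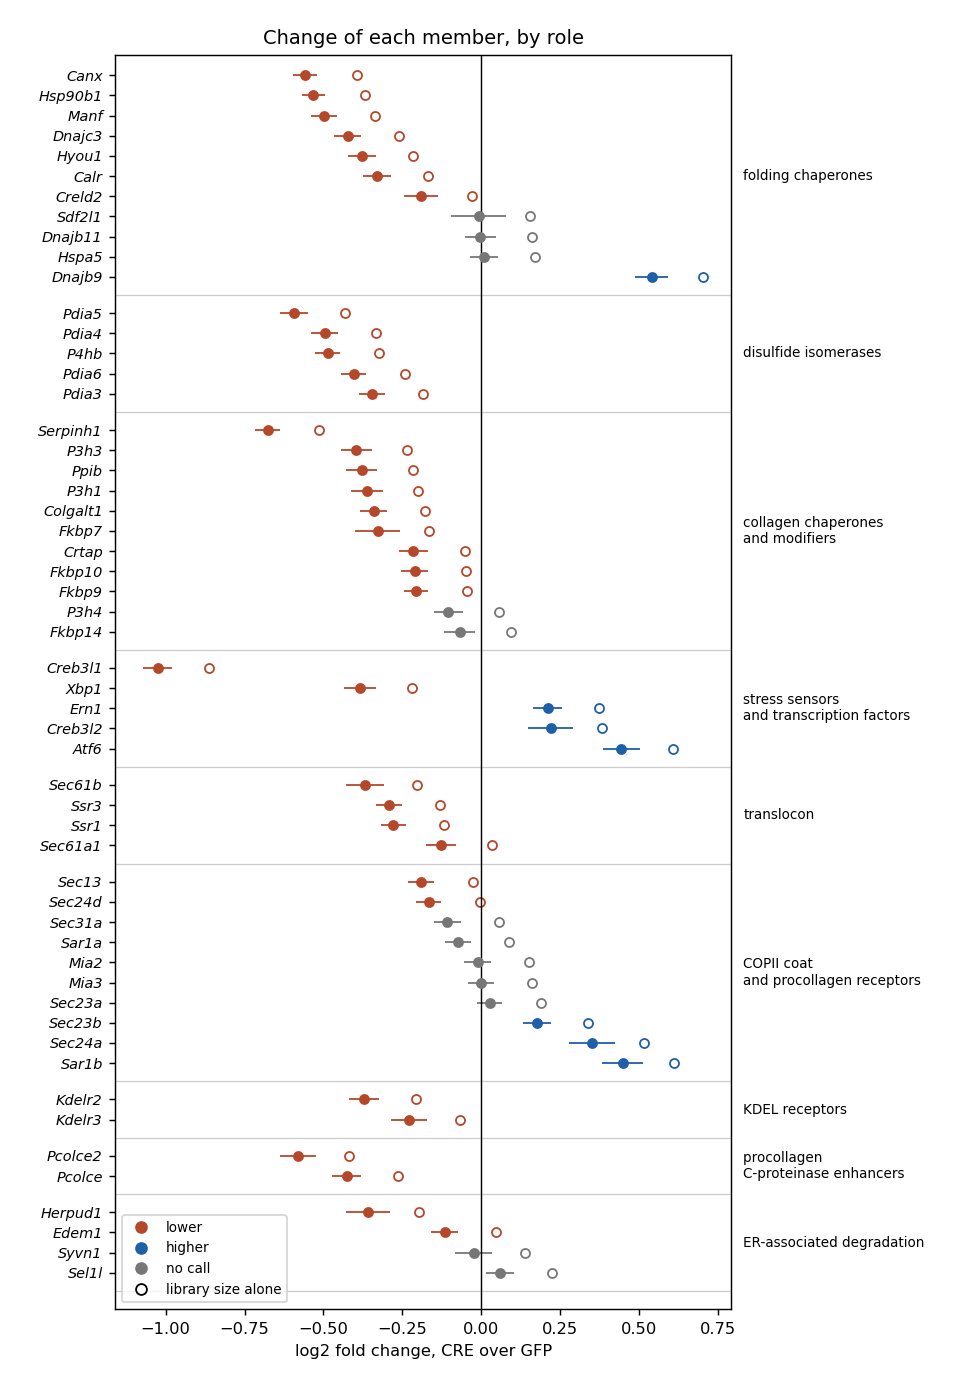
Log2 fold change of each of the 54 members, CRE over GFP, grouped by role. Filled points are the TMM-scaled edgeR estimates with bars of 1 SE, coloured by their call, and open points are the estimates with library size alone, which lie to the right of the filled ones throughout. *Creb3l1* sits at -1.02, the 5 disulfide isomerases all lie below 0 under both scalings, and *Dnajb9*, *Atf6* and *Sar1b* lie above 0 under both.

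Among the 11 folding chaperones, which bind unfolded stretches of many proteins, 7 fell, 1 rose and 3 were not called. *Hsp90b1* (GRP94, the HSP90 of the ER) had 2261, 2303 and 2269 CPM in GFP replicates 1, 2 and 3 and 1587, 1540.2 and 1598 CPM in CRE replicates 1, 2 and 3. The groups were far apart, and *Hsp90b1* fell by 0.53 on the log2 scale (SE 0.037, adjusted p = 2.49e-06). Of its exon bases, 10.3% are shared with a pseudogene on the opposite strand, whose reads could not be separated without a stated strand setting. *Canx* (calnexin, a membrane lectin that holds N-glycosylated proteins) read 1127, 1112 and 1118 CPM in GFP and 757, 748 and 775 CPM in CRE, again with a wide gap. Its change was -0.56 (SE 0.038, adjusted p = 2.07e-06). *Calr* (calreticulin, its soluble relative) fell less, by 0.33 on the log2 scale, from 1638 ± 62.8 to 1302 ± 40.3 CPM (SD, n = 3). *Manf*, a small secreted protein of the stress response, fell by 0.50, *Dnajc3*, a co-chaperone of BiP, by 0.42, and *Hyou1*, which exchanges the nucleotide of BiP, by 0.38 on the log2 scale. *Creld2*, another stress-induced ER protein, changed by -0.19 (adjusted p = 0.0138) and lost its call with library size alone. It was also not called without GFP replicate 3, CRE replicate 1 or CRE replicate 2 (adjusted p of at most 0.060).

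*Hspa5*, which codes for BiP, the main HSP70 of the ER and the chaperone most often used to read the unfolded protein response, did not follow. Its values were 1556, 1526 and 1529 CPM in GFP and 1564, 1605 and 1468 CPM in CRE. The groups overlapped, with the highest and the lowest of the 6 values both in CRE, and the log2 fold change was 0.0084 (SE 0.043, adjusted p = 0.891). With library size alone it was called higher, by 0.17. *Dnajb11* (-0.0037) and *Sdf2l1* (-0.0088), which form complexes with BiP on new proteins, were not called and their groups overlapped. *Dnajb9*, a co-chaperone of BiP known to hold IRE1 inactive and to be induced by XBP1, went the other way, with 77.5, 74.9 and 69.2 CPM in GFP and 109.9, 108 and 104 CPM in CRE. Every CRE library lay above every GFP library, and *Dnajb9* rose by 0.54 (SE 0.052, adjusted p = 1.89e-05). Ratios of counts within a library do not depend on scaling. For these, 3 pairs were chosen after their values were seen, and no test is drawn from them. The count of *Hspa5* over that of *Hsp90b1* was 0.675 ± 0.0130 in GFP and 0.982 ± 0.0617 in CRE (SD, n = 3), that of *Hspa5* over *P4hb* 0.647 ± 0.0105 and 0.913 ± 0.0628, and that of *Dnajb9* over *Dnajb11* 0.360 ± 0.0310 and 0.524 ± 0.0392. In all 3 pairs the groups did not overlap, where 29.6% of all tested genes lay lower and 30.0% higher in every CRE library. Each pair set members known to have changed differently against each other, so the lack of overlap adds nothing to their single values.

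The 5 disulfide isomerases, which make and reshuffle disulfide bonds, all fell, and each kept its call with library size alone. *P4hb*, which is also a subunit of the prolyl 4-hydroxylase of collagen, had 2381, 2404 and 2344 CPM in GFP and 1629, 1712 and 1745 CPM in CRE. The lowest GFP value was well above the highest CRE value, and *P4hb* fell by 0.49 on the log2 scale (SE 0.040, adjusted p = 6.93e-06). *Pdia5* was the isomerase with the lowest fold change, at 147, 141 and 144 CPM in GFP and 91.7, 97.1 and 97.7 CPM in CRE. It fell by 0.59 (SE 0.045, adjusted p = 4.15e-06), again with no overlap. *Pdia4* fell by 0.50, *Pdia6* by 0.40 and *Pdia3*, the partner of calnexin and calreticulin, by 0.35 on the log2 scale.

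Of the 11 collagen chaperones and modifiers, 9 fell and none rose. With library size alone 5 of the 9 were called lower, and again none was higher. *Serpinh1* (HSP47, a chaperone that binds folded procollagen and little else) had the highest level per length of all members in GFP, 1106 ± 20.8 FPKM. In CPM it read 2558, 2496 and 2584 in GFP and 1631, 1556 and 1591 in CRE. No CRE library came near the GFP range, and *Serpinh1* fell by 0.68 on the log2 scale (SE 0.038, adjusted p = 6.86e-07), to 62.6% of the GFP mean. The complex that hydroxylates single prolines of the collagen chain and eases its folding is made of *P3h1*, *Crtap* and *Ppib* (cyclophilin B). *P3h1* fell by 0.36, *Ppib* by 0.38 and *Crtap* by 0.22, the last not called with library size alone. Of the exon bases of *Ppib*, 25.0% overlap *Snx22* on the opposite strand, which had under 1 CPM in both groups. *P3h3*, which works with lysyl hydroxylase, fell by 0.40, while *P3h4* of the same complex was not called (-0.11, adjusted p = 0.0762). *Colgalt1*, which adds galactose to hydroxylysine, fell by 0.34. Among the prolyl isomerases of the FKBP family, *Fkbp7* fell by 0.33, *Fkbp10* by 0.21 and *Fkbp9* by 0.21, all without a call under library size alone, and *Fkbp14* was not called (-0.069).

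The 5 stress sensors and membrane-bound transcription factors split, and each kept its direction and call with library size alone. *Creb3l1* (OASIS), a factor cut from the ER membrane and known to act on collagen genes, had the lowest fold change of all 54 members. It read 207, 216 and 208 CPM in GFP and 101, 108 and 101 CPM in CRE. CRE kept 49.2% of the GFP mean, a change of -1.02 (SE 0.046, adjusted p = 2.53e-07). Its relative *Creb3l2*, known for acting on COPII genes, had 433, 403 and 379.9 CPM in GFP and 507, 484 and 424 CPM in CRE. It was called higher (0.22, adjusted p = 0.0248), but CRE replicate 3 lay below GFP replicate 1, and it kept its call in only 2 of the 6 fits that left out a library, those without GFP replicate 1 or CRE replicate 3 (adjusted p of at most 0.103 in the others).

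*Atf6*, the sensor that travels to the Golgi to be cleaved, had 133, 115 and 132 CPM in GFP and 178, 169 and 170.4 CPM in CRE. The groups did not overlap and *Atf6* rose by 0.44 (SE 0.059, adjusted p = 0.000145). *Ern1* (IRE1), the sensor that splices the *Xbp1* transcript, read 87.9, 94.4 and 88.4 CPM in GFP and 105, 104 and 103 CPM in CRE. It rose by 0.21 (SE 0.045, adjusted p = 0.00317), a small step between groups that did not overlap. *Xbp1* itself went down, from 152, 137 and 146 CPM in GFP to 114, 111 and 109 CPM in CRE. It fell by 0.38 on the log2 scale (SE 0.051, adjusted p = 0.000139). The table counts whole genes, so spliced and unspliced *Xbp1* were not separated, and neither was cleaved from full-length ATF6.

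**Figure D2:**
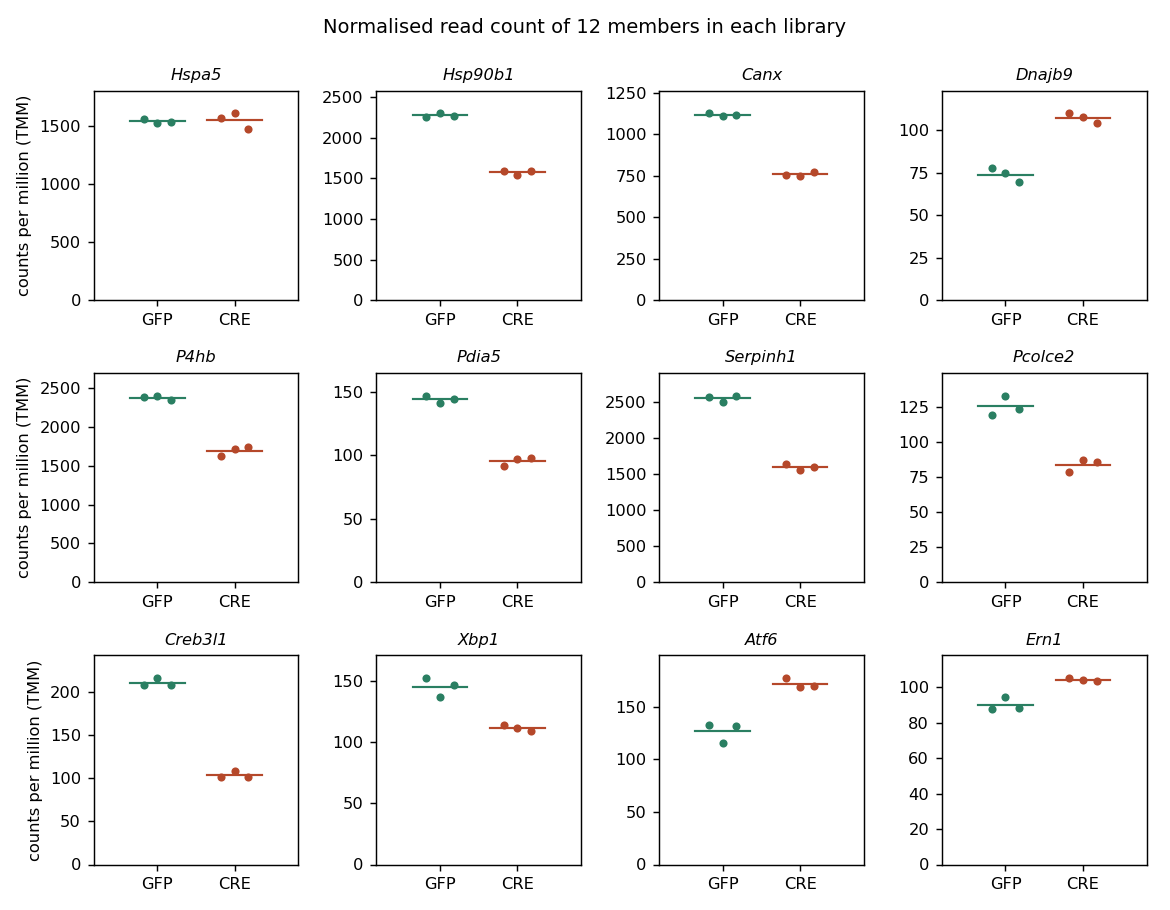
Normalised read count (CPM, TMM scaling, axis from 0) of 12 members in each library, with points for replicates 1 to 3 from left to right and a line at the group mean. *Hspa5* is level between the groups, *Dnajb9*, *Atf6* and *Ern1* are higher in each CRE library than in any GFP library, and the other 8 are lower in each CRE library.

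All 4 translocon genes were called lower. *Sec61b*, a small subunit of the channel, fell by 0.37, and *Ssr3* and *Ssr1*, subunits of the TRAP complex beside it, by 0.29 and 0.28. *Ssr1* was not called on the log2(FPKM + 1) scale (-0.097, adjusted p = 0.104 in limma). *Sec61a1*, the pore itself, had 332, 304 and 303 CPM in GFP and 294, 285 and 279.7 CPM in CRE. The groups did not overlap but lay close, and the change was -0.13 (SE 0.049, adjusted p = 0.0490). It turned to 0.034 with library size alone, was not called then, and kept its call in only 1 of the 6 fits that left out a library, that without GFP replicate 2 (adjusted p of at most 0.152 in the others).

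The COPII coat and its procollagen receptors did not move one way: 2 of 10 fell, 3 rose and 5 were not called. These shares of 20% and 30% lie near the 25.7% and 25.5% of all tested genes. With library size alone 6 of the 10 were higher and none lower, where 43.0% of all tested genes were higher and 16.2% lower. *Sec23a*, the inner coat subunit, had 385, 388 and 375 CPM in GFP and 393, 390.5 and 385 CPM in CRE, with overlapping groups. Its log2 fold change was 0.026 (SE 0.040, adjusted p = 0.612), which library size alone made 0.19 and a higher call. *Mia3* (TANGO1), the receptor that links procollagen in the lumen to the coat, had 392, 391 and 387 CPM in GFP and 376, 401 and 392 CPM in CRE. Its log2 fold change was -0.0014 (SE 0.042, adjusted p = 0.981). *Mia3* is also a gene for which the deposited FPKM moved apart from the counts: 65.6 ± 0.439 FPKM in GFP and 78.7 ± 2.01 FPKM in CRE, a change of 0.26 on the log2(FPKM + 1) scale against 0.16 for its counts with library size alone. *Mia2*, the partner of *Mia3*, was not called (-0.012). *Sar1b* rose by 0.45 and *Sec24a* by 0.35, and *Sec23b* rose by 0.18. *Sec24d* fell by 0.17 and *Sec13* by 0.19, neither called with library size alone. *Sar1a* (-0.074) and *Sec31a* (-0.11) were not called.

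Position adds 1 feature that symbols do not show. *Sec24a* (chr11:51692264-51763634, minus strand) and *Sar1b* (chr11:51763687-51791925, plus strand) start 52 bases apart in opposite directions, and they are the COPII members with the highest fold changes. *P3h4* and *Fkbp10* are likewise divergent neighbours, with 860 bases between them, and changed by -0.11 and -0.21. *Sec23a* and *Mia2*, with 83781 bases between them, were both not called. No other members lay within 100000 bases of each other. Whether neighbours share reads at their starts was not tested, and the annotated exons of *Sec24a* and *Sar1b* do not overlap.

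Both KDEL receptors, which return escaped chaperones to the ER, fell. *Kdelr3* had 171, 151 and 152 CPM in GFP and 135, 130.4 and 139 CPM in CRE. The groups did not overlap and *Kdelr3* fell by 0.23 on the log2 scale (SE 0.057, adjusted p = 0.00678), a call lost with library size alone. *Kdelr2* fell by 0.37 and kept its call. Both secreted enhancers of the C-proteinase, which cuts the carboxyl end of procollagen, fell under both scalings. *Pcolce* read 419.9, 456 and 440.1 CPM in GFP and 316, 333 and 331 CPM in CRE, and *Pcolce2* 119.6, 133 and 124 CPM in GFP and 78.7, 87.2 and 85.6 CPM in CRE. All GFP values of both genes were above all CRE values. *Pcolce* changed by -0.43 (SE 0.046, adjusted p = 3.93e-05) and *Pcolce2* by -0.58 (SE 0.057, adjusted p = 2.03e-05). Of the 4 genes for ER-associated degradation, which sends misfolded proteins to the proteasome, *Herpud1* fell by 0.36. *Edem1*, a mannosidase-like protein that marks glycoproteins for removal, was called lower by 0.12 (adjusted p = 0.0423), kept that call in 1 of the 6 fits that left out a library, that without GFP replicate 1 (adjusted p of at most 0.138 in the others), and stood at 0.046 with library size alone. *Sel1l* (0.059) and *Syvn1* (-0.024), the core of the ligase, were not called, though *Sel1l* was higher with library size alone.

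Pairs of related members were compared by the ratio of their counts within each library, where scaling cancels. In 7 of 10 pairs the groups did not overlap, where 29.6% of all tested genes lay lower and 30.0% higher in every CRE library, so that a lack of overlap was common in these data. An exact two-sided permutation test of 3 against 3 libraries cannot go below p = 0.1, which each of the 7 reached (0.143 after adjustment over the 10 pairs), so none could pass 0.05. The log2 ratio of *Creb3l1* to *Creb3l2* moved furthest, from -0.94 ± 0.105 in GFP to -2.18 ± 0.128 in CRE (SD, n = 3). That of *Sar1a* to *Sar1b* went from 2.57 ± 0.124 to 2.04 ± 0.0856, and that of *Sec24a* to *Sec24d* from -2.09 ± 0.161 to -1.57 ± 0.0214. In these COPII pairs the ratio moved towards the less abundant gene. Smaller steps were seen for *Fkbp7* to *Fkbp14* (-1.03 to -1.29), *Pcolce* to *Pcolce2* (1.81 to 1.96), *Sec23a* to *Sec23b* (1.97 to 1.82) and *Kdelr2* to *Kdelr3* (0.86 to 0.72). The ratios of *Mia2* to *Mia3* (exact p = 0.7), *P3h1* to *P3h3* (0.6) and *Fkbp9* to *Fkbp10* (0.9) overlapped between the groups. With ratios of FPKM in place of counts, 8 of the 10 pairs did not overlap, since *Mia2* to *Mia3* was then lower in each CRE library, by 0.12 on the log2 scale on average.

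**Figure D3:**
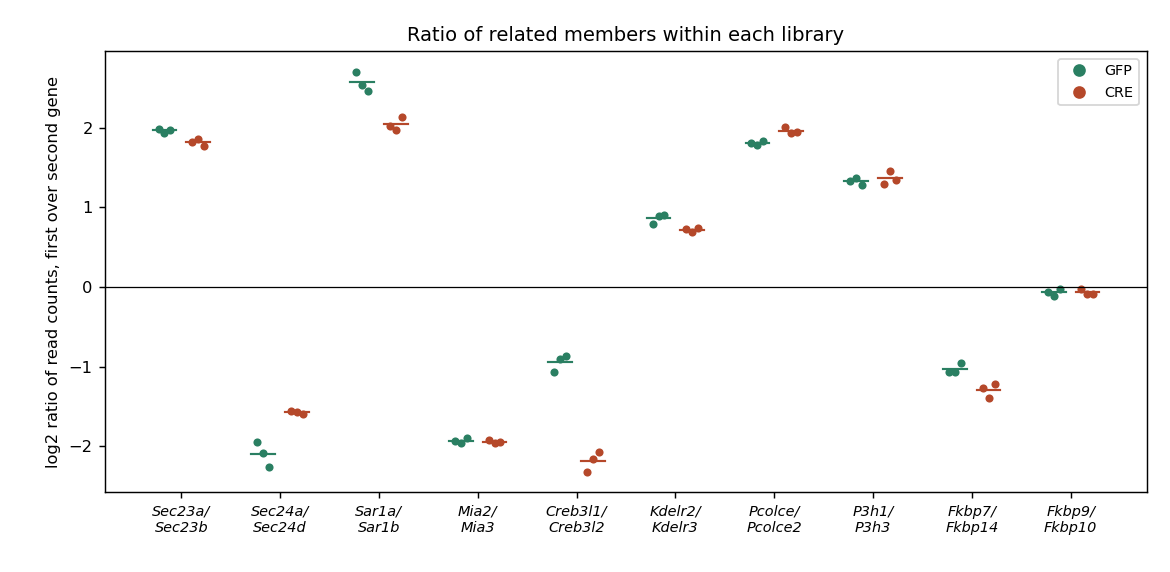
Log2 ratio of the read counts (plus 0.5) of 10 pairs of related members in each library, with points for replicates 1 to 3 and a line at the group mean. A value of 0 means equal counts, not equal levels per length. The gap between the groups is 1.24 for *Creb3l1*/*Creb3l2*, and the points of *Mia2*/*Mia3*, *P3h1*/*P3h3* and *Fkbp9*/*Fkbp10* overlap.

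With TMM scaling, all 7 members that rose had a level per length below the median of the members. The 27 members at or above the members' median level in GFP, which ran from 93.8 to 1106 FPKM, took 1.93% of all GFP counts, and 23 of them fell, none rose and 4 were not called, beside 25.7% and 25.5% of all tested genes. Of the 27 below it, from 11.7 to 93.2 FPKM and with 0.468% of GFP counts, 12 fell, 7 rose and 8 were not called. That 7 of 27 rose is near the 25.5% of all tested genes called higher. Under library size alone 17 of the upper set were lower and 2 higher (*Hspa5* and *Dnajb11*), and 8 of the lower set were lower and 11 higher. That scaling called 16.2% of all tested genes lower and 43.0% higher, and the 11 of 27 lies near the latter. The median log2 fold change was -0.34 in the upper set and -0.069 in the lower with TMM, and -0.18 and 0.094 with library size alone. Across the 54 members the log2 GFP level and the change correlated at r = -0.55 (Pearson) and rho = -0.53 (Spearman), a description over genes of the same 6 libraries in which the GFP values enter both measures. Of the 4 members of the upper set that were not called, *Hspa5* ranked highest, 6 of 54, at 533 ± 3.29 FPKM in GFP and 598 ± 27.4 FPKM in CRE. In the lower set *Creb3l1*, *Pdia5* and *Pcolce2*, ranked 31, 32 and 49, fell by more than 0.5.

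**Figure D4:**
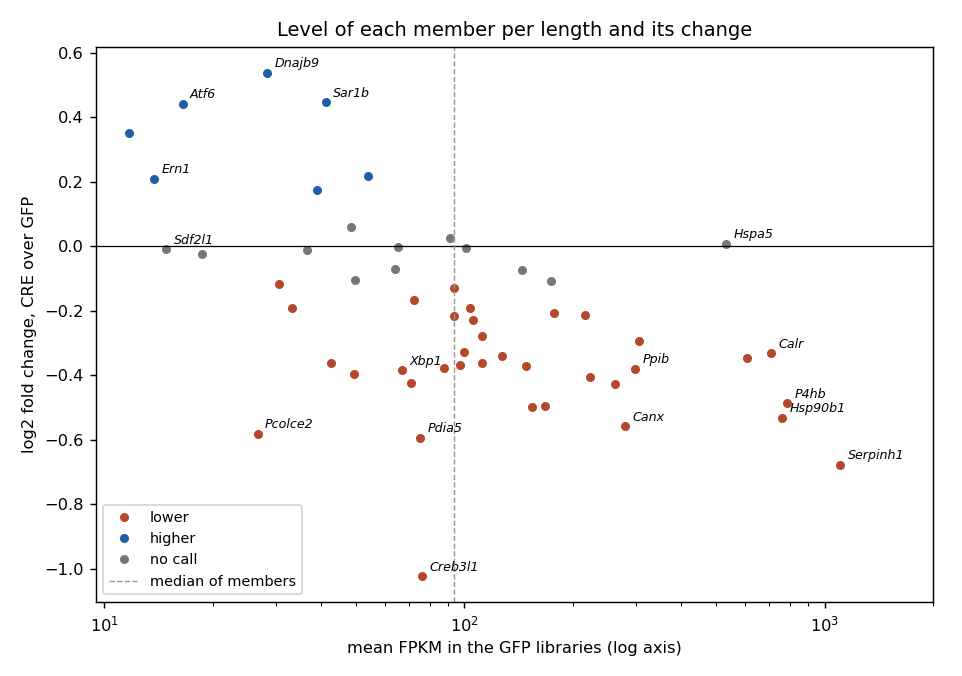
Mean FPKM of each member in the GFP libraries (log axis) against its log2 fold change, CRE over GFP, coloured by call. The dashed line marks the median level of the members. All 7 members called higher with TMM scaling lie left of the line, and *Hspa5* lies close to 0.

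Genes of the same pathways that are no members were listed by function, and their counts are read beside the 25.7% of all tested genes called lower and 25.5% called higher (16.2% and 43.0% with library size alone). Of 28 other ER folding enzymes 27 were tested, and 12 fell, 5 rose and 10 were not called, which turned to 5 lower and 9 higher with library size alone. The called genes with the lowest and the highest fold change were *Fkbp2* (-1.05), a prolyl isomerase, and *Ero1b* (0.41), an oxidase that feeds the disulfide isomerases. *Ero1b* (adjusted p = 0.0433) was not called by DESeq2 and kept its call in only 1 of the 6 fits that left out a library, that without GFP replicate 1 (adjusted p of at most 0.141 in the others). Of 29 tested genes for translocation and N-glycosylation, 17 fell and 1 rose (10 lower and 9 higher with library size alone), from *Spcs2* (-0.48), a subunit of the signal peptidase, to *Srp14* (0.26), a part of the signal recognition particle. Of 12 tested procollagen modifying and processing enzymes, 9 fell and 1 rose (4 and 2 with library size alone), from *Tll1* (-0.86), a protease of the C-proteinase family, to *Adamts3* (0.96), a procollagen N-proteinase. *P4ha1*, the catalytic partner of *P4hb*, fell by 0.62 and is named here after its value was seen. Of 43 genes for ER exit and return from the Golgi, 15 fell and 12 rose, shares of 34.9% and 27.9%, which turned to 4 lower and 22 higher with library size alone. The called genes ran from *Lman1* (-0.45), a cargo receptor for glycoproteins, to *Klhl12* (0.58), an adaptor of the ubiquitin ligase known to enlarge COPII coats for procollagen.

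Among the other stress sensors and degradation genes more rose than fell. Of 33 tested, 5 fell, 16 rose and 12 were not called (3 lower and 25 higher with library size alone), with a median of 0.11, and they took 0.365% to 0.372% of the counts in GFP and 0.435% to 0.445% in CRE. The lowest was *Creb3l3* (-1.43), a relative of *Creb3l1* of low level here, and the highest *Ddit3* (0.66), which codes for the stress factor CHOP. Also named after their values were seen are *Eif2ak3* (PERK), which rose by 0.55 from 46.2 to 67.5 CPM, *Edem2* (0.57), *Edem3* (0.54) and *Creb3* (0.54), which rose, and *Trib3* (-1.06) and *Atf4* (-0.41), which fell, the last of them the factor downstream of PERK that is known to act on *Ddit3* and *Trib3*.

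The procollagen cargo was lower in CRE as well. Of 21 procollagen chains 17 fell and 1 rose (16 and 1 with library size alone), with a median of -0.54, from *Col2a1* (-2.31, at 1.73 CPM in GFP) to *Col7a1* (1.35). Over the 6 lists, cargo included, 75 genes were lower and 36 higher, which became 42 lower and 68 higher with library size alone. Of all tested genes 25.7% were lower and 25.5% higher, which became 16.2% and 43.0% with library size alone. The chains of the abundant fibrillar collagens, named after their values were seen, changed by -0.74 (*Col1a1*), -0.65 (*Col1a2*) and -1.25 (*Col3a1*). The chains took 5.38% to 5.53% of all counts in GFP and 3.49% to 3.72% in CRE, and the members 2.39% to 2.42% and 2.13% to 2.18%. The ratio of member counts to cargo counts was 0.434, 0.443 and 0.445 in GFP and 0.609, 0.607 and 0.585 in CRE. It was higher in CRE in each library, 1.36 times by the means, and 1.33 times with sums of FPKM. Since the cargo is the denominator and took a smaller share of counts in CRE, a list whose share did not change would stand at 1.52 times in counts and 1.5 times in FPKM, and the members lay below that. The 9 roles share this denominator. In counts they ran from 1.24 times for the C-proteinase enhancers and 1.25 times for the collagen chaperones and modifiers to 1.67 times for the COPII coat and 1.68 times for the stress sensors, and only these last roles and ER-associated degradation (1.64 times) lay above the value of an unchanged share. With FPKM the C-proteinase enhancers stood at 1.23 times, the stress sensors at 1.42 times, ER-associated degradation at 1.55 times and the COPII coat at 1.66 times.

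**Figure D5:**
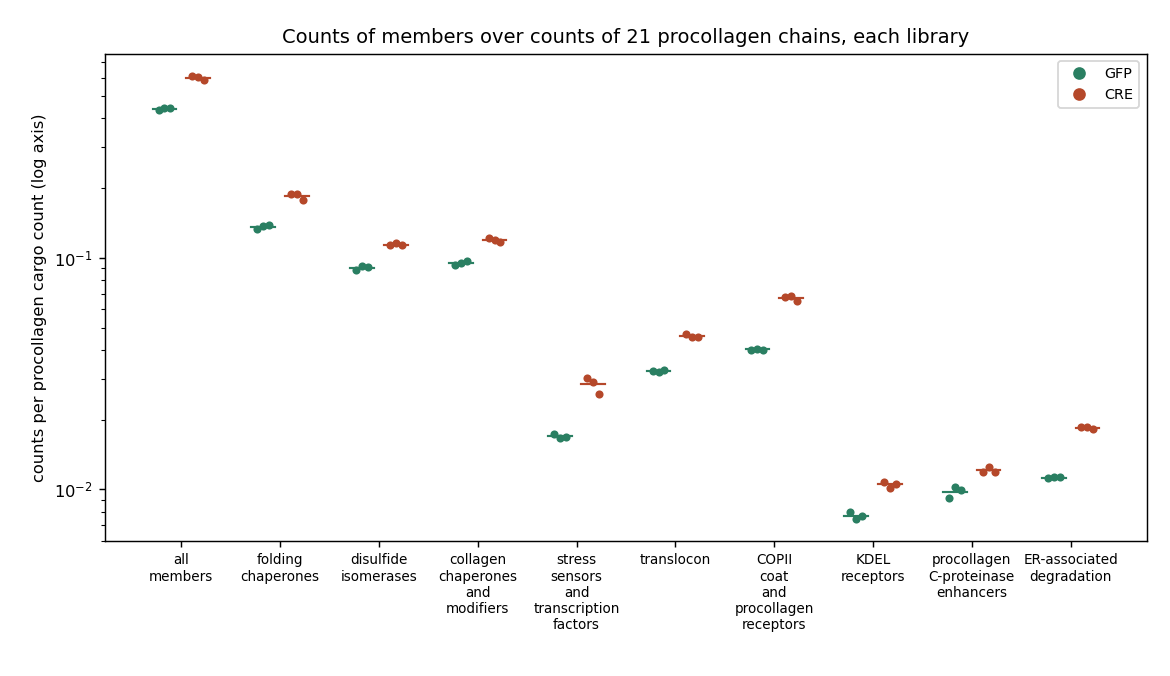
Summed counts of all members and of each role divided by the summed counts of 21 procollagen chains, for each library (log axis), with points for replicates 1 to 3 and a line at the group mean. The CRE points lie above the GFP points in each column, from 0.441 to 0.600 for all members by the group means, and the denominator took a smaller share of counts in CRE.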

How the data were processed

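RNA-seq was run on 3 GFP and 3 CRE libraries, grouped and numbered by their titles. The study's methods give Trimmomatic for trimming, HISAT2 for alignment to GRCm38, HTSeq-count for gene counts, Cufflinks for FPKM and DESeq for the authors' own test. Tool versions and the strand setting of counting are not given in the sources used here, and the labels and the methods name different extraction and library kits. Reads of genes that overlap on opposite strands therefore could not be told apart. What the authors deposited for each library is a column of raw counts, without normalization, and a column of FPKM. The log2 fold changes, p-values and false discovery rates that the authors deposited are those of their own comparison and were not used.

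The tests were run on the counts of 22063 genes with edgeR 4.0.16 under R 4.3.3. Its function filterByExpr (minimum count 10, minimum total 15) left 12862 genes, libraries were scaled by TMM, and the groups were tested by a quasi-likelihood F test (two-sided) with Benjamini-Hochberg adjustment over all 12862. A gene is called at an adjusted p under 0.05. CPM are TMM-scaled and given as mean ± SD, and intervals of depth cover counting error only. Totals were 17002126 to 20343590 counts per library. The members, roles and lists were chosen with earlier results of these data known. Values in every library were given for called members with an absolute log2 fold change of at least 0.5 and for Hspa5, P4hb, Serpinh1, Xbp1, Ern1, Atf6, Sec61a1, Sec23a, Mia3, Kdelr3 and Pcolce whatever their change, with Creb3l2 added after its values were seen. Of each other pathway list the called genes with the lowest and highest fold change were named. Paralog ratios were compared by an exact two-sided permutation test. Coordinates are those of GENCODE M21 (GRCm38), in which all 54 members were found, and promoters those of RefSeq. On simulated counts for this comparison (10 sets, 12862 genes, 200 changed by 1.5 or 0.66), the test recovered 74.15% of the changed genes, and 8.48% of its calls were unchanged genes. The 200 were drawn at random, as many raised as lowered, and were far fewer than the genes called in the data. The sets therefore do not bear on the choice between TMM and library size alone. The alternatives were RLE size factors, library size alone, upper-quartile scaling, a looser filter (any gene with at least 1 count in all), a stricter one (10 counts or more in each library), DESeq2 1.42.0, voom and limma 3.58.1, limma on the deposited FPKM after log2(FPKM + 1) or log2(FPKM + 0.1), a block for the replicate number, the study's threshold, and leaving out single libraries. Figures were drawn with matplotlib 3.10.9.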

Additional observations from a re-analysis of the deposited data

How the results depend on the processing

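With library size alone, and with limma on log2(FPKM + 1) and log2(FPKM + 0.1), which use no TMM, all genes split into 2083, 1916 and 1909 lower and 5529, 4976 and 4989 higher, members called higher rose to 13, 13 and 13, the median of the members was -0.060, -0.059 and -0.059, and the other pathway genes split into 42, 39 and 38 lower and 68, 69 and 69 higher. In the same order, of the members called in such a fit or in the TMM fit, 5 changed sign: Dnajb11 (0.16, 0.16 and 0.16), Sec61a1 (0.034, 0.034 and 0.035), Mia2 (0.15, 0.14 and 0.14), Mia3 (0.16, 0.26 and 0.26) and Edem1 (0.046, 0.045 and 0.046). Among members called in none of these fits, Sdf2l1, Fkbp14, P3h4, Sar1a and Syvn1 also turned from below to above 0 in each, and Sec31a did with library size alone. By the study's own rule, which asks for an unadjusted p below 0.05 and a fold above 1.5 or below 0.66, 1323 genes were lower and 967 higher, with 2 members lower and 0 higher, 17 and 3 other pathway genes, and 2 roles with more lower than higher calls. That threshold leaves out the smaller changes of most members, of which 35 were lower and 7 higher by adjusted p alone. Counting Col1a1, Col1a2 and Col3a1 as the only cargo moved the ratio of members to cargo, CRE over GFP, to 1.43.

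Leaving out each library in turn gave 32 to 34 members lower and 6 to 7 higher, a median of -0.25 to -0.21, 7 roles with more lower calls, 2874 to 3303 genes lower and 2735 to 3214 higher over the whole table, 66 to 78 other pathway genes lower and 27 to 32 higher, 7 pairs of related members without overlap, a ratio to cargo of 1.35 to 1.38, and a log2 fold change of Tet3 of -0.78 to -0.62. The deviations of same-numbered libraries correlated at 0.046, 0.18 and -0.018, and those of libraries with different numbers at -0.12 to 0.071. The value of replicate 2 was the highest of all, but the 3 same-numbered values showed no common pattern. The sources used here do not say that the numbers mark pairs, so they were not taken as pairs. With the replicate number as a block, 3373 genes were lower and 3260 higher, and among the members Edem1 lost its call. Edem1 also lost it with DESeq2, the looser filter and upper-quartile scaling. Sec61a1 lost its call with upper-quartile scaling and the stricter filter, and Sec31a was called lower with voom.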
